A study of Homo sapiens with 3 samples.

Results

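The T-box genes were described in RNA-seq of 22Rv1 cells, a human prostate cancer line. The rule took the rows whose Ensembl identifier maps to TBX1, TBX2, TBX3, TBX4, TBX5, TBX6, TBX15, TBX18, TBX19 or TBX21, which gave 10 of 27024 counted genes. The samples were 3 libraries of 1 group, genotype WT, untreated as far as the labels say, and the edited cells that the study set beside them are not analysed here. The methods speak of control clones and a figure legend of 3 different WT lines, while the labels give only WT. The labels thus leave unsettled whether the libraries are separate clones or cultures of the same cells. Every p-value below measures only the spread between these 3 libraries. On the counted genes the libraries held 38252744, 35675670 and 38629080 reads, after neighbouring rows with identical reads were merged. Over all rows the reads were 42812838, 39887130 and 43190050.

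T-box factors are transcription factors that bind DNA through a shared domain, the T-box. Many of them are switched on in narrow domains of the embryo, where they set the identity of limb, heart, mesoderm or immune cells. TBX2 and TBX3 are close relatives that act mainly as repressors and are known for holding back cell cycle inhibitors such as CDKN2A and CDKN1A. The study took an interest in TBX3 as a candidate target of a nearby enhancer on chromosome 12. It drew on expression in edited cells and on chromatin contacts, which are not analysed here.

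The labelled cell type was checked against its markers. All 8 luminal prostate markers reported here, KRT8, HOXB13 and FOXA1 among them, reached 1 CPM, the limit of expression used here on reads scaled to library size, in each library. The basal markers KRT5, KRT14 and TP63 and the T cell markers CD3D, CD3E and CD2 were at 0 in each library, and the remaining T cell marker, PTPRC, had 2 reads in all. Of 5 fibroblast markers, COL1A1 and LUM passed 1 CPM, while COL1A2, DCN and PDGFRB did not. COL1A2 had 1 read in all and PDGFRB had 44. The normalized counts of the 5 summed to between 416.3 and 455.0 per library. Among them DCN had 26, 1 and 5 reads. It differed between the libraries by a chi-square test with the dispersion of edgeR added (adjusted p = 0.0436). That dispersion was estimated from these same libraries. The part of such cells in any value below was not tested. In bulk RNA, fewer cells with a transcript and less transcript per cell cannot be told apart.

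TBX3 stood far above the other members. Its normalized count, which is the number of reads divided by 1 scaling factor per library, was 14086.0, 14270.3 and 14239.3 in WT replicates 1, 2 and 3, a mean of 14198.5 ± 98.7 (SD, n = 3). The 3 libraries lay close together, with the highest 1.01 times the lowest. TBX3, a repressor needed for limb, breast and heart development, lies at chr12:115108060-115121980 on the minus strand of GRCh37, in 7 exons of the canonical transcript. Per kilobase of that transcript its level was 3000 ± 20.8, rank 754 among 12181 expressed protein-coding genes, whose median was 332. The 3 genes with values most like those of TBX3 over the 3 libraries, by Euclidean distance on log2 values among 15942 genes, were DHX9 (distance 0.0232), EWSR1 (0.0348) and CTNNA1 (0.0390).

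**Figure D1:**
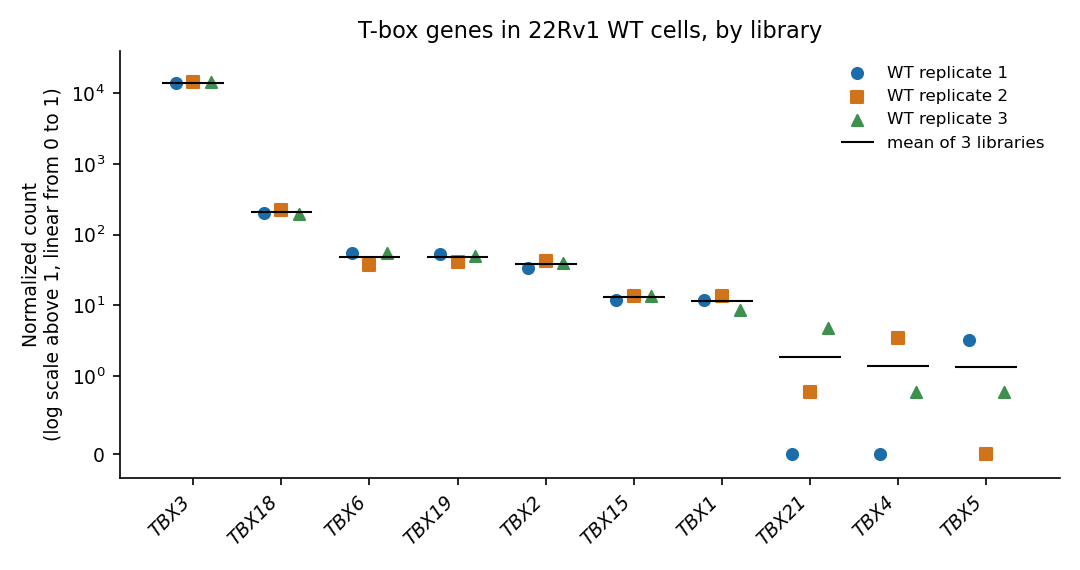
Normalized counts (vertical axis, logarithmic above 1) of the 10 T-box genes, with a point per WT library and a line at the mean. TBX3 lies between 14086.0 and 14270.3, TBX18 near 209 on average, and TBX21, TBX4 and TBX5 have at least 1 library at 0.

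TBX2, the closest relative of TBX3, was near the limit of 1 CPM. Its normalized counts were 33.2, 42.3 and 40.2, a mean of 38.6 ± 4.76 (SD, n = 3). The gene lies at chr17:59477204-59486827 on the plus strand. Per kilobase, the reads on TBX3 were 268 times those on TBX2, with an exact 95% interval of 227 to 318 that covers counting error only. The genes nearest to TBX2 in their values were GALNT7-DT, DACT3 and C1QL3, at distances of 0.101, 0.104 and 0.119.

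TBX18, known from the sinus node, ureter and epicardium, was the second highest member. Its normalized counts were 205.4, 225.9 and 196.0, a mean of 209 ± 15.3 (SD, n = 3). Every library of TBX3 lay above every library of TBX18, and the ratio of reads per kilobase was 92.4, with an exact 95% interval of 86.1 to 99.3. TBX15, which acts in skeletal and fat development, had 11.9, 13.5 and 13.4. That is under 1 CPM in each library, although the 3 values lay close together.

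TBX6 and TBX19 had similar normalized counts. TBX6, which patterns the paraxial mesoderm, had 55.3, 37.2 and 54.3, with replicate 2 the lowest. TBX19, which drives POMC in the pituitary, had 52.9, 40.6 and 49.6, again lowest in replicate 2. Since the TBX6 transcript is shorter, its level per kilobase was 26.6 ± 5.52 against 16.0 ± 2.13 for TBX19, with no overlap between the libraries. With the longest transcript of each gene (22.6 against 16.0) or the union of its exons (15.8 against 12.5) the libraries overlapped.

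TBX1, the gene central to pharyngeal arch development, had normalized counts of 11.9, 13.5 and 8.7, all under 1 CPM. Its exons share 280 bases with GNB1L on the other strand. The strandedness of the counting is not given in the sources used here, so reads of the pair cannot be told apart. The same holds for TBX5 and TBX5-AS1, which share 312 bases, and for TBX2 and an antisense transcript that share 28 bases. TBX3 shares 196 bases of exon with TBX3-AS1. No member had a near-identical copy among the transcripts of other genes.

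TBX21, TBX4 and TBX5 were at the limit of detection. TBX21, the T-bet factor of T helper cells, had 0, 1 and 6 reads in replicates 1, 2 and 3. TBX4, which acts in hindlimb and lung, had 0, 4 and 1 reads. TBX5, which acts in forelimb and heart, had 4, 0 and 1 reads. Their means of 2.33, 1.67 and 1.67 reads lay under a floor of 3 reads per library. TBX21 passed 3 reads in replicate 3, TBX4 in replicate 2 and TBX5 in replicate 1. Each gene also had a library without a read, so expression was not reliably detected at this depth. Of the 7 reads on TBX21, 6 came from replicate 3. Exact multinomial tests against library size, chosen after the values were seen and not adjusted, gave p = 0.0133 for TBX21, 0.0471 for TBX4 and 0.113 for TBX5.

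Per kilobase of the canonical transcript, the order of the members was TBX3, TBX18, TBX6, TBX19, TBX2, TBX1, TBX15, TBX21, TBX4 and TBX5. Neighbours in this order had no overlapping libraries down to TBX15 and TBX21. TBX21 overlapped TBX4, and TBX4 overlapped TBX5. The lower part of the order depended on the length used. Over the union of exons TBX1 fell to 2.89, just under TBX15 at 2.98, and these 2 overlapped, while TBX2 was at 6.34. With the longest transcripts TBX2, at 7.39, overlapped TBX1, at 5.45. The genes compared were measured in the same 3 libraries, so the order is a description and was not tested. The gap between the first and second members was 92.2-fold, and the next, between TBX18 and TBX6, was 1.22-fold.

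In all, 5 of 10 members reached 1 CPM in each library, namely TBX3, TBX18, TBX6, TBX19 and TBX2. Among all counted genes this share was 47.7%, and among protein-coding genes 63.8%, so the members' share lay near that of all genes and below that of protein-coding genes. TBX3 took 97.4% ± 0.0336 of the normalized counts on the 10 members (SD, n = 3), and the other 9 together had 373.8, 377.2 and 368.5 normalized counts. Per kilobase the share of TBX3 was 96.9% ± 0.126.

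Of the T-box genes outside the list, MGA was the highest. MGA, a large protein with a T-box that pairs with MAX, had normalized counts of 4012.7, 4621.4 and 3993.8. EOMES, a factor of early mesoderm and T cells, averaged 83.5 ± 8.34, and TBX20, a heart factor, averaged 58.4 ± 10.3. TBX22 averaged 17.5 ± 0.265. TBX10 had 0, 1 and 14 reads, with nearly all of them in replicate 3, and TBR1 had 1, 3 and 8. TBXT, the brachyury gene of the notochord, had no read in any library. Of these 7 genes, 3 reached 1 CPM, beside 63.8% of all protein-coding genes. Over all 17 T-box genes TBX3 held 75.0% ± 1.34 of the normalized counts and 85.5% ± 0.626 of the counts per kilobase.

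**Figure D2:**
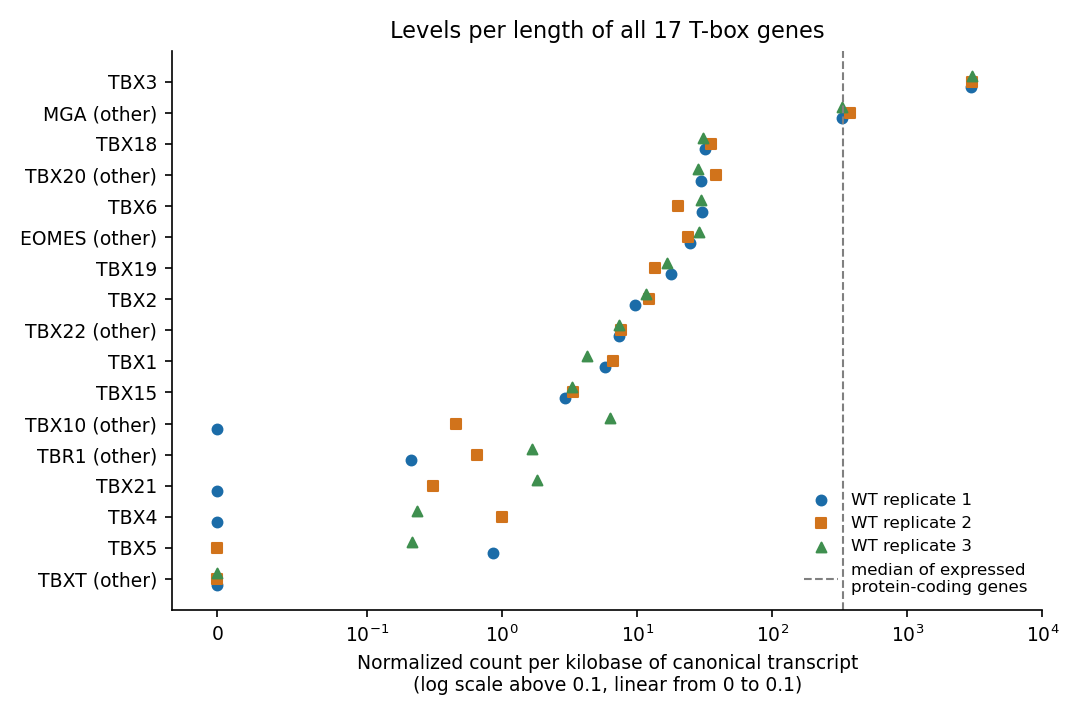
Normalized count per kilobase of canonical transcript (horizontal axis, logarithmic above 0.1) of 17 T-box genes in each WT library, with the median of expressed protein-coding genes as a dashed line at 332. TBX3 lies to the right of the line, MGA at it, and every other T-box gene to its left.

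The SOX, HOX, FOX and KLF of transcription factors were set beside the T-box genes, chosen after the values were seen and given as a description. Per kilobase, the highest gene took 47.1% of the HOX sum (HOXB13), 39.8% of the FOX sum (FOXA1), 37.0% of the SOX sum (SOX4) and 19.0% of the KLF sum (KLF16). TBX3 was 8.69 times the second T-box gene, MGA, while HOXB13 was 7.78 times HOXB6 and SOX4 was 1.38 times SOX9.

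**Figure D3:**
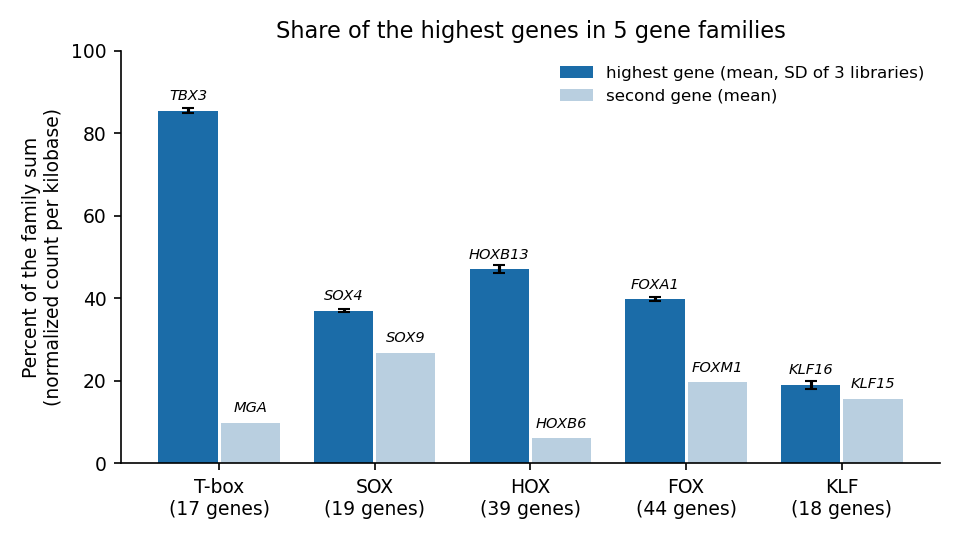
Percent of the summed normalized counts per kilobase held by the highest gene (dark bars, mean with SD of 3 libraries) and the second gene (pale bars, mean) of 5 families. TBX3 holds 85.5% of the T-box sum, and the highest genes of the other families hold between 19.0% and 47.1%.

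Of the 7 members that averaged 10 reads or more, 0 differed between the libraries by a chi-square test of homogeneity with Benjamini-Hochberg adjustment, 0 had an unadjusted p under 0.05, and 0 differed with the dispersion of edgeR added. Over all genes the test called 41.9%, or 6141 of 14646, and 0.416% with the dispersion. That dispersion was estimated from these same libraries, so few calls are built in. Here and below, a count of 0 with it is therefore not an independent check. The lowest adjusted p was 0.145, for TBX6, and TBX3 had 0.549. The 297 tested genes within 1.41-fold of the level of TBX3, a window set after its values were seen, included 81.1% that differed. Of the 2786 genes between 40 and 320 mean reads, a window set in the same way that holds TBX18, TBX6, TBX19 and TBX2, 33.4% differed. MGA did differ, with an adjusted p of 2.34e-15, highest in replicate 2 by 1.16-fold over the lowest library. With the dispersion added its adjusted p was 0.489.

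**Figure D4:**
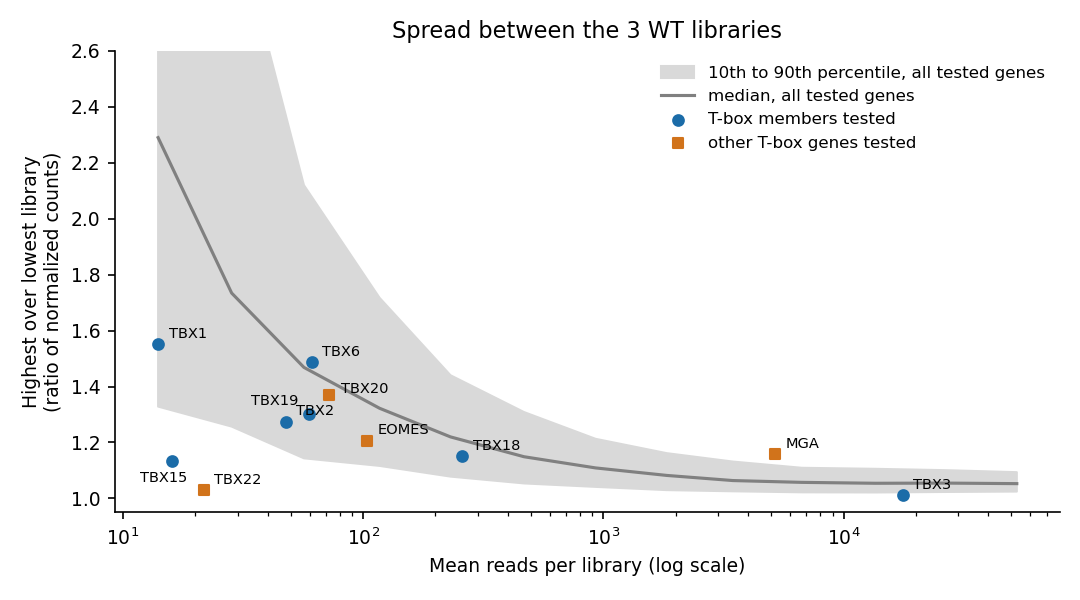
Ratio of the highest to the lowest library (vertical axis, which ends below the top of the band at low reads) against mean reads (horizontal axis, logarithmic) for the T-box genes that averaged 10 reads or more. The grey line and band are the median and the 10th to 90th percentile of all tested genes that have reads in each library. TBX3 lies at 1.01 and MGA at 1.16.

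TBX3 and TBX5 are neighbours on chromosome 12, and TBX2 and TBX4 on chromosome 17, each pair with 0 protein-coding genes between. TBX5 lies 261.8 kb from TBX3 on the side of lower coordinates, and MED13L, the next protein-coding gene on the other side, lies 1273.7 kb away. TBX3 had 52779 reads over the 3 libraries and TBX5 had 5, a ratio per kilobase of 8326 with an exact 95% interval of 3567 to 25642. TBX2 and TBX4 are 42.9 kb apart, and the same ratio was 28.3, with an interval of 11.8 to 88.4. In each pair the library ranges did not overlap.

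Of the genes described as targets of TBX2 and TBX3, 8 are reported here and 5 of them, or 62.5%, reached 1 CPM, beside 63.8% of all protein-coding genes. CDKN2A, whose products include the cell cycle inhibitor p16, had 2468.2, 2294.2 and 2471.2 normalized counts over the whole gene. CDKN1A, which encodes p21, had 4568.9, 4285.4 and 4398.5. CDH1, the epithelial cadherin, had 10872.1, 10857.4 and 10932.8. Per kilobase these 3 targets stood at 2465, 2087 and 2263, each below TBX3. NDRG1 and GJA1 averaged 2205 and 1278 normalized counts. GJA5 had no read, CST6 had 1 and NPPA had 7 in all. Of the 5 tested targets, 3 differed between the libraries (CDKN2A, CDKN1A and NDRG1), beside 41.9% of all tested genes. With the dispersion added 0 differed, beside 0.416%.

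The core T-box element AGGTGTGA was searched on both strands of RefSeq promoter windows of 300 bases, 250 before a transcript start and 50 after it, in GRCh38.p14. It stood in 0.980% of 35116 windows, in 0 of the 7 members with a window (TBX2, TBX3 and TBX15 were not searched) and in 1 of the 5 targets with a window. That target was CDKN1A, on chromosome 6, and the site is shown because CDKN1A is a described target of TBX3. The element, in capitals, begins at base 2 of the transcript, counting the annotated start as base 1. With flanks it lies at chr6:36678704-36678733, on the plus strand.
CDKN1A: tgcgccagctgAGGTGTGAgcagctgccga

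The upstream bases of TBX18 and TBX5 are shown because they are the second highest member and the neighbour of TBX3 at the limit of detection. Their 250 bases before the start come from RefSeq, at chr6:84764599-84764848 and chr12:114408013-114408262 of GRCh38.p14, both on the minus strand, with each CG pair in capitals. Each holds 20 CG pairs. RefSeq lists another start of TBX5, with 13 CG pairs upstream of it.
TBX18: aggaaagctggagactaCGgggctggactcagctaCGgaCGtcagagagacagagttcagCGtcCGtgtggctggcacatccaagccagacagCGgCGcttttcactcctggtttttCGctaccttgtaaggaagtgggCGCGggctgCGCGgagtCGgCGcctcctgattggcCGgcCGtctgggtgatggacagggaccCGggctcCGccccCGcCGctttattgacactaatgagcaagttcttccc
TBX5: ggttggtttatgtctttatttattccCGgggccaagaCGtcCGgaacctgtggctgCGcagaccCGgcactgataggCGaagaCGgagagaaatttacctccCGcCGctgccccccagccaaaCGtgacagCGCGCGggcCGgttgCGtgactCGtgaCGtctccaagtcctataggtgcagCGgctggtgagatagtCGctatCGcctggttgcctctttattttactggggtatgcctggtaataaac

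Of 11 genes of partner proteins described for T-box factors, 10 reached 1 CPM, beside 63.8% of all protein-coding genes. The histone deacetylase HDAC1 had 11553.1, 11203.5 and 10866.6 normalized counts, and the heterochromatin protein CBX3 had 13842.7, 14010.5 and 14010.2. Per kilobase these were the 2 partners above TBX3. The corepressor TLE3 averaged 5345 normalized counts and TLE1 averaged 73.4. NKX2-5, a heart partner of TBX5, averaged 317 ± 9.85, and GATA4, another, had 4 reads in all. Of 10 tested partners, 5 differed between the libraries, beside 41.9% of all tested genes, and 0 with the dispersion added, beside 0.416%.

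Of 16 genes of signals known upstream of T-box genes, 10 reached 1 CPM, that is 62.5%, beside 63.8% of all protein-coding genes. CTNNB1, the beta-catenin gene, had 13868.8, 13324.2 and 13836.2 normalized counts and alone exceeded TBX3 per kilobase. EZH2, a Polycomb methyltransferase, averaged 3829, and SMAD4 and SMAD3, of TGF-beta signalling, averaged 2675 and 1299. BMP2 averaged 714, whereas BMP4 had 37.1, 21.2 and 18.9. Of the Hedgehog genes, SHH averaged 10.8, GLI1 15.0 and GLI2 5.60, while GLI3 averaged 211 ± 38.1. FGF8 had no read. Of 13 tested genes 5 differed, beside 41.9% of all tested genes, and 0 with the dispersion added, beside 0.416%.

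**Figure D5:**
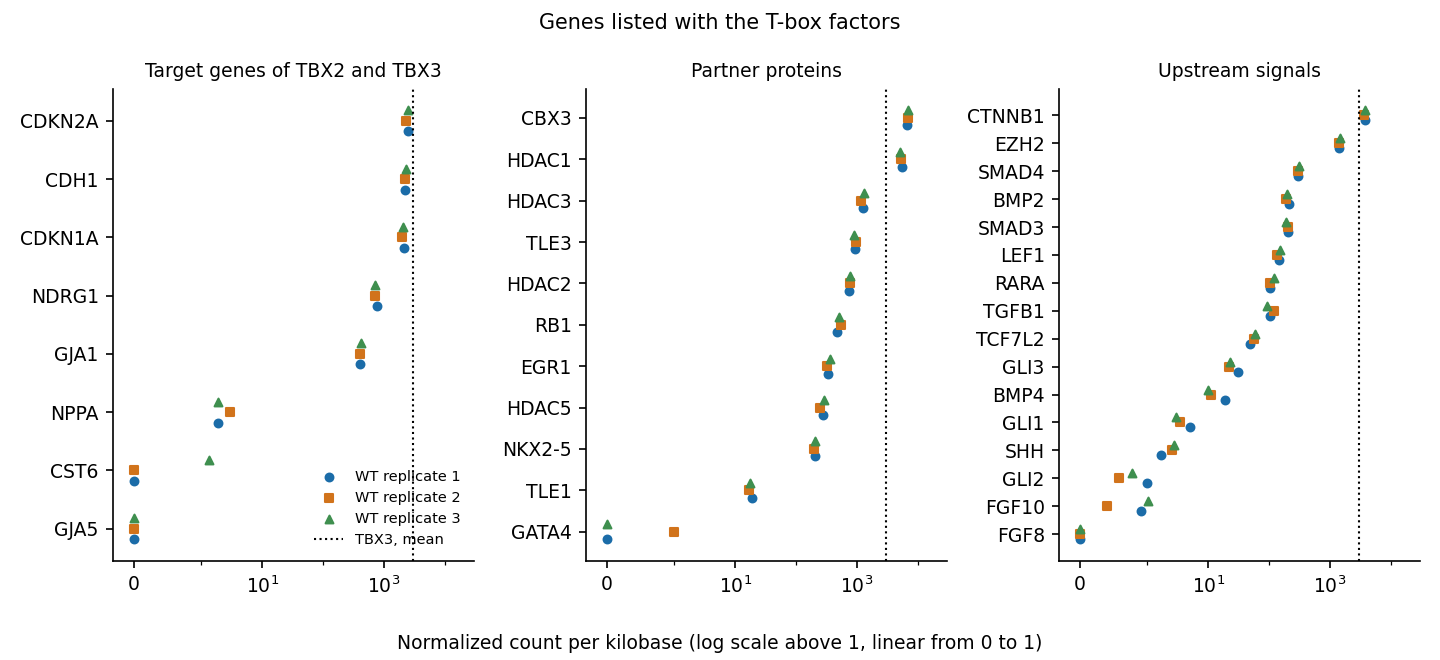
Normalized count per kilobase (horizontal axis, logarithmic above 1) in each WT library for the described targets of TBX2 and TBX3, the partner proteins and the upstream signals, with the mean of TBX3 as a dotted line. CBX3, HDAC1 and CTNNB1 lie to the right of that line.

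Of 14 genes that go with the other members in their usual cell types, 2 reached 1 CPM, PITX1 and WT1. That is 14.3%, beside 63.8% of all protein-coding genes. No read was found in any library for 6 of the 14, beside 3145 of 19141 protein-coding genes. Next to TBX21, the T cell genes IFNG and CXCR3 were at 0, and IL12RB2 had 15, 21 and 11 reads. Next to TBX19, POMC and NEUROD1 were at 0 while PITX1, another pituitary factor, averaged 742 ± 69.6. Next to TBX5, the heart genes MYH6, TNNT2 and NPPB had 4, 6 and 6 reads in all. Next to TBX6, MSGN1 was at 0, MESP2 averaged 28.2 ± 2.42 and DLL1 had normalized counts of 0.8, 8.5 and 23.6. Next to TBX18, WT1 averaged 164 ± 5.93 and TCF21 was at 0. Of 5 tested genes 2 differed, DLL1 and PITX1, beside 41.9% of all tested genes, and 0 with the dispersion added, beside 0.416%.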

How the data were processed

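RNA of 22Rv1 WT cells was sequenced in 3 libraries. The authors mapped reads to GRCh37/hg19 by HISAT2, using GENCODE gene models, took gene counts from HTSeq and scaled the counts with DESeq2. The unit deposited is a signal, the reads of a gene over the size factor of its library (1.27, 1.18 and 1.27), rounded. Whole reads, within that rounding, were recovered for 100% of values above 0. Neighbouring rows with identical reads were merged, removing 1976 of 29000 rows. Symbols, matched for 86.1% of rows, and lengths came from GENCODE lifted to GRCh37. Library sizes were set by TMM (edgeR 4.0.16, R 4.3.3). Reads were tested by chi-square (scipy 1.17.1) for genes that averaged 10 reads or more, after a test on simulated data, with Benjamini-Hochberg adjustment at 0.05. The common biological coefficient of variation was 5.59%. Copies (minimap2) were transcripts matching over at least 50% of length at 98% identity. Every member, the listed genes, the nearest 3 genes to TBX3 and TBX2 and the neighbours of TBX3 were named. Some genes of the lists are not reported here. The members and lists were chosen with earlier results of these data known. Alternatives were other scalings, read and CPM limits, lengths, all rows kept, an added dispersion and each replicate left out. Intervals cover counting error only.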

Additional observations from a re-analysis of the deposited data

How the results depend on the processing

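The share of TBX3 among the members was 96.9% per kilobase and 75.0% over all 17 T-box genes, an alternative chosen after seeing the data, and ranged from 97.4199% to 97.4511% with a replicate left out. The count of members at 1 CPM was 2 at a limit of 5 CPM and 7 at 0.1 CPM, and with all rows kept TBX2 left it, giving 4. The share of all genes under these settings is not given here. No tested member differed between the libraries under other scalings, a minimum of 50 reads, the added dispersion, all rows kept or any replicate left out. Over all genes these settings called from 61, with the added dispersion (0.416% of tested genes), to 6827, with all rows kept. For the other settings the share of tested genes is not given here, so the counts of members cannot be set against it. At a minimum of 1 read TBX21 alone differed, giving 1 of 10 (adjusted p = 0.0396 by chi-square with Benjamini-Hochberg adjustment, on 7 reads). At that minimum 6676 genes differed over all genes, and their share of those tested is likewise not given here. All 30 levels under other scalings moved by less than the spread between replicates. With a replicate left out, which cannot move a mean of 3 by its SD, TBX21 ranged from 0.40 to 2.75 normalized counts, TBX4 from 0.40 to 2.10 and TBX5 from 0.40 to 2.00. With other transcript lengths 12 of 20 levels per kilobase moved by less than that spread. That count includes levels that could not move. For TBX3, TBX4, TBX15, TBX18, TBX19 and TBX21 the longest transcript has the same length as the canonical one. Depth limits TBX21, TBX4 and TBX5. The libraries form 1 group, so no conditions could be paired. Genes were compared within the same libraries, and no test paired by library was made.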
